A study of Mus musculus with 12 samples.

Results

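The genes described here are 7 transcription factors that carry or restrain the output of the circadian clock: Dbp, Tef, Hlf, Nfil3, Ciart, Bhlhe40 and Bhlhe41. They were taken by gene symbol, from a list drawn up with earlier results of these data known, and all 7 were found among the 24391 genes listed for each library. RNA was sequenced from colon epithelial cells of C57BL/6 mice aged 18 weeks, in 12 libraries that form 3 groups of 4, numbered 0 to 3 within each group. The first group was the control. The second was induced with AOM (azoxymethane, a carcinogen) and DSS (dextran sulfate sodium, which inflames the colon), a combination that gives mice colon tumours. The third received AOM and DSS and was also treated with curcumin, a compound of turmeric, and is called the curcumin group. The labels state that right-sided tumours and the proximal segment were taken off first, that the rest of the colon was scraped, and that the scrapings were spun slowly and washed. The time of day of collection, which bears on every clock gene, is not given in the sources used here. The sex of the mice and the doses of the agents are likewise not given there. The labels do not tie each library to its own animal, so p-values measure the spread between samples.

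The molecular clock is a loop in which CLOCK and BMAL1 (encoded by Arntl) bind E-box sequences and switch on their own repressors. The same step switches on output factors. DBP, TEF and HLF are PAR bZIP activators that bind D-box sequences, and NFIL3 (also called E4BP4) is a bZIP repressor that binds the same sequences. CIART (also called CHRONO) and the basic helix-loop-helix factors BHLHE40 (DEC1) and BHLHE41 (DEC2) repress transcription driven by CLOCK and BMAL1. In the gut these factors are known to connect the clock with nutrient transport, detoxification and lipid uptake.

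The 250 bases before each annotated start were searched on both strands for the E-box CACGTG in RefSeq promoters of build GRCm38.p6. A window was found for 6 of the 7 members, all but Bhlhe40. There were 7 windows in all, of which 4 held an E-box, in 3 of the 6 genes. Ciart had 3, each of the windows of Tef had 1 and Bhlhe41 had 1. Dbp and Nfil3, which also passed the test described further on, had no match, and neither had Hlf. Of all 32851 promoter windows of this length, 6.02% held an E-box and 20 windows (0.0609%) held 3 or more. The Ciart window (chr3:95882229-95882478, minus strand) and the second of the Tef windows (chr15:81811164-81811413, plus strand) are printed 5′ to 3′ with E-boxes in capitals, because both genes passed the test in the comparisons given further on.
Ciart: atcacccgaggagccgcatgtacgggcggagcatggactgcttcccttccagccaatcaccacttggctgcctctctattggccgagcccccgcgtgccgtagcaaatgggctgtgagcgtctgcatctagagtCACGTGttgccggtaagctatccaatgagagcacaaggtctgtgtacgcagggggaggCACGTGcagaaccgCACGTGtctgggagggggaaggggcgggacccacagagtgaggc
Tef: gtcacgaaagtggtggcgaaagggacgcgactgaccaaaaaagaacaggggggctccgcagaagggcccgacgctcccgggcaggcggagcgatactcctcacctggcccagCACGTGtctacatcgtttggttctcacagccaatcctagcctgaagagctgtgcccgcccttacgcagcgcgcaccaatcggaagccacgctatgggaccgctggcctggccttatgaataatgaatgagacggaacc
The E-boxes of Ciart lie 116 to 111, 58 to 53 and 44 to 39 bases before the start, and that of Tef 138 to 133 bases before it. The E-box-like CACGTT and the D-box were searched too and had 0 matches in the 7 windows; they occur in 3.85% and 0.931% of all windows. A match describes letters and is not a measured binding site. The search covered only these 250 bases, so the absence of a match does not mean that a gene lacks E-boxes elsewhere.

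Values are FPKM, reads scaled to gene length and library depth. From the steps between FPKM values, the reads behind them were recovered, and totals ran from 5567988 to 15968416 reads per library. Summed FPKM of 8 epithelial markers ran from 5420 to 8610 in control, 5170 to 7130 in AOM/DSS and 5210 to 8370 in curcumin libraries. Scrapings also hold other cells. Summed FPKM of 6 B and plasma cell markers was 10.1 to 35.9 in control, 15.9 to 103 in AOM/DSS and 3.21 to 23.8 in curcumin libraries. In such bulk samples, fewer cells of a type and less RNA per cell cannot be told apart. The libraries also fell into a GC-rich class (control 0, AOM/DSS 0 and 1, curcumin 0 and 1) and an AT-rich class of 7, by whether a library's deviations correlated positively or negatively with gene GC content.

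The members differed widely in level. In control libraries Bhlhe40 had the highest mean, 92.3 ± 12.5 FPKM (SD, n = 4), followed by Dbp with 71.0 ± 27.5, Tef with 57.0 ± 12.3 and Ciart with 21.1 ± 8.93. Bhlhe40 and Dbp did not differ beyond their spread, nor did Dbp and Tef. Nfil3 averaged 0.890 ± 0.391 FPKM, and Hlf and Bhlhe41 were near the limit of detection. The filter, which asked for 1 FPKM or above in 4 or more libraries, kept 5 members, of which Nfil3 passed through 2 control, all 4 AOM/DSS and 0 curcumin libraries. The 4 AOM/DSS libraries alone would have kept Nfil3, so its place among the tested members depends on the group where it is high. Hlf and Bhlhe41 were not tested.

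**Figure D1:**
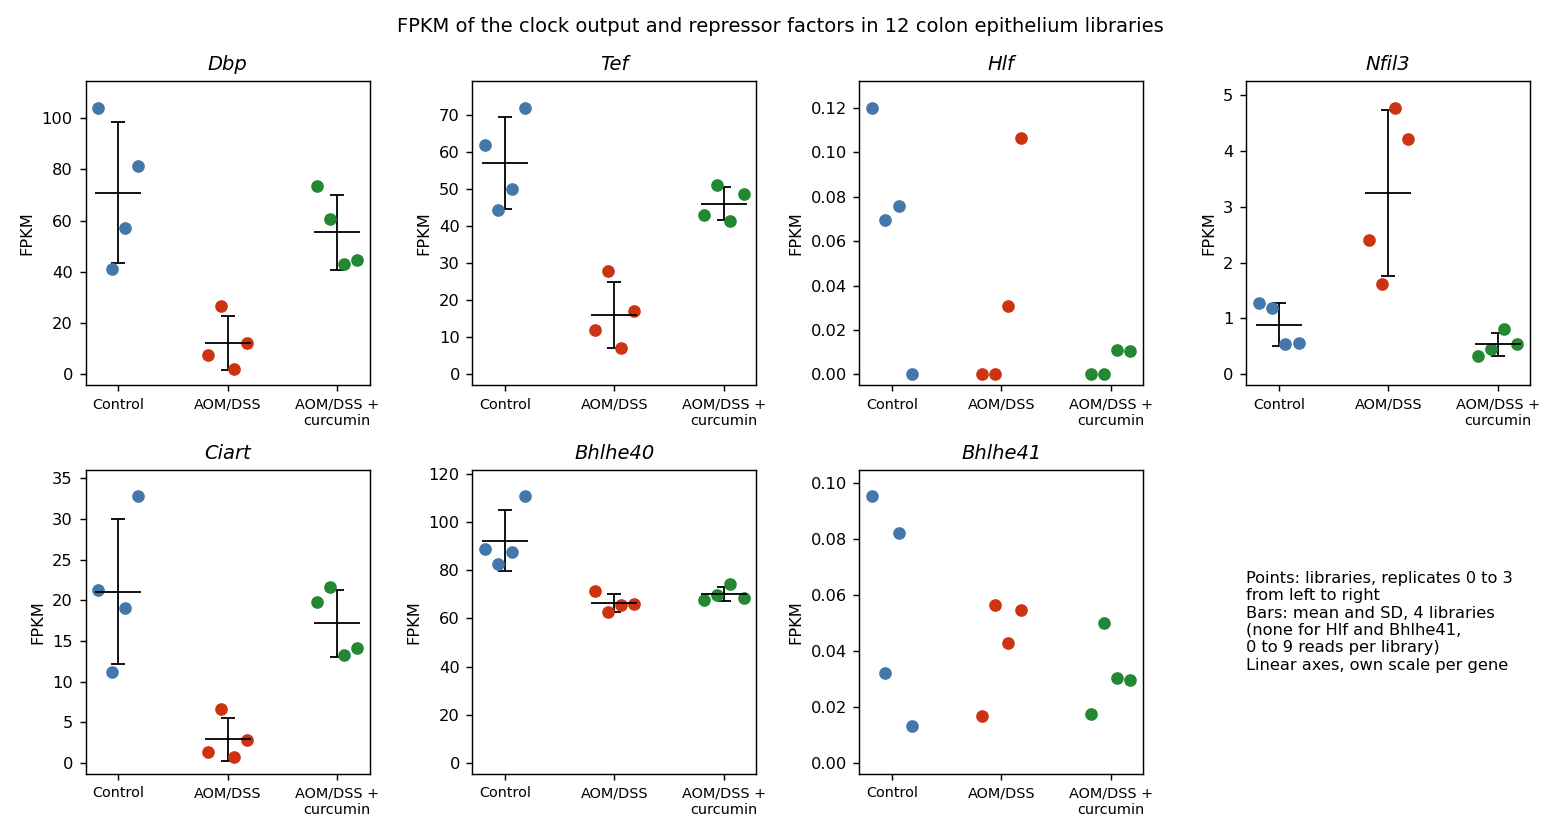
FPKM (linear vertical axes, own scale for each gene) of the 7 members in each of 12 libraries, in 3 groups of 4. Points are libraries and bars the mean and SD of 4, left out for Hlf and Bhlhe41; Dbp, Tef and Ciart are lowest and Nfil3 highest in the 4 AOM/DSS libraries, while Bhlhe40 is highest in the 4 control libraries.

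With AOM/DSS, the activators Dbp and Tef and the clock repressor Ciart fell, and the D-box repressor Nfil3 rose. With curcumin on top of AOM/DSS, Dbp, Tef and Ciart were higher and Nfil3 lower than with AOM/DSS alone. The test was limma's moderated test on log2(FPKM + 1) over 12052 genes, with a threshold of Benjamini-Hochberg adjusted p below 0.05, and all adjusted p-values given for group differences come from it. In AOM/DSS against control, 4 of the 5 tested members passed, 1 higher and 3 lower; over all genes tested, 1.27% passed, 0.456% higher and 0.813% lower. In curcumin against AOM/DSS, 4 of 5 passed, 3 higher and 1 lower; over all genes, 1.08% passed, 0.73% higher and 0.348% lower. These comparisons share the AOM/DSS libraries. In curcumin against control, 0 of 5 passed against 0.141% of all genes, and 1 member, Bhlhe40, had an unadjusted p below 0.05, as did 12.2% of all genes; 0 passed with limma's voom on the recovered reads. Groups did not overlap for 5 of 5 tested members in AOM/DSS against control (6.02% of all genes), for 4 in curcumin against AOM/DSS (9.22%) and for 1 in curcumin against control (8.26%). The counts for AOM/DSS against control and curcumin against AOM/DSS include Nfil3, which the 4 AOM/DSS libraries alone would have kept. With a filter of 5 FPKM, which left Nfil3 out, 3 of 4 tested members passed limma's threshold in each. Of 8726 genes, 126 and 114 passed there.

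**Figure D2:**
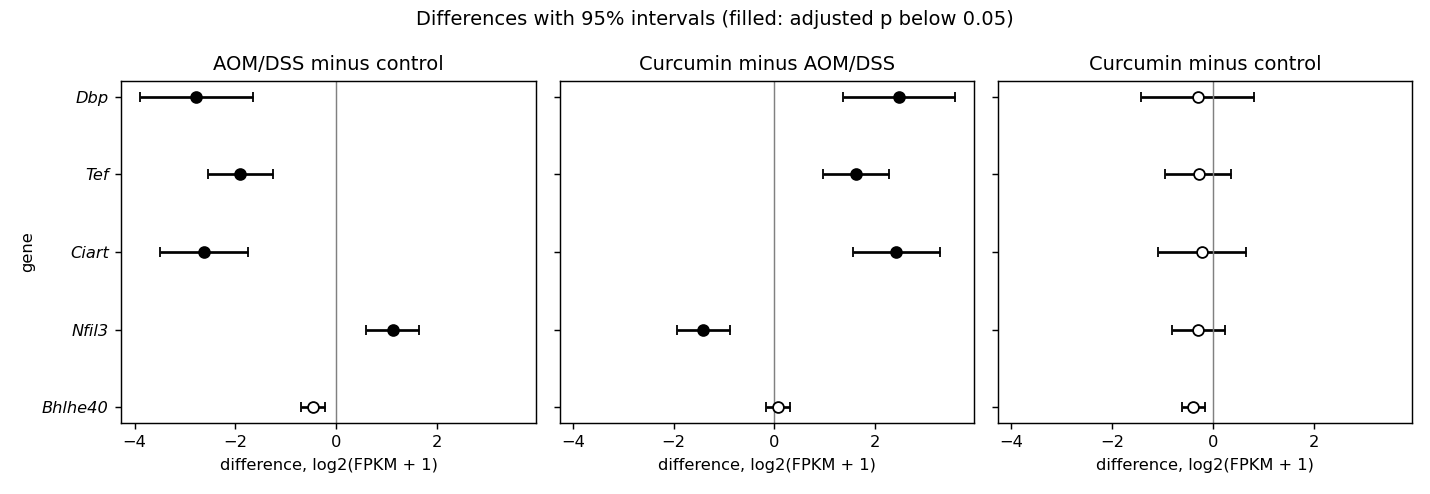
Difference of group means on the log2(FPKM + 1) scale (points) with 95% confidence intervals (bars) for the 5 tested members in the 3 comparisons, with filled points where the adjusted p is below 0.05. Dbp, Tef and Ciart lie below 0 for AOM/DSS minus control and above 0 for curcumin minus AOM/DSS, Nfil3 lies the other way, and the intervals of these 4 span 0 for curcumin minus control.

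Dbp, the PAR bZIP activator with the widest daily swing in many tissues, was at 104, 41.3, 57.2 and 81.4 FPKM in control libraries 0 to 3. It was at 7.65, 26.6, 2.03 and 12.4 FPKM in AOM/DSS libraries and at 73.7, 60.8, 42.9 and 44.6 in curcumin libraries. Every AOM/DSS library lay below every library of the other groups, which overlapped each other. The AOM/DSS mean was 12.2 ± 10.5 FPKM (SD, n = 4), 5.84-fold below control, with a difference on the log2(FPKM + 1) scale of -2.78 (SE 0.52, adjusted p = 0.0223). The curcumin mean, 55.5 ± 14.6 FPKM, was 4.56-fold above AOM/DSS (log2 difference 2.47, SE 0.52, adjusted p = 0.0365). Against control it differed by -0.30, with a 95% interval from -1.42 to 0.81 (adjusted p = 0.855). The fall with AOM/DSS did not pass without control 0 (adjusted p = 0.0651), control 3 (0.0846) or AOM/DSS 0 (0.063). The difference with curcumin did not pass without control 2 (0.0567) or 3 (0.0547), AOM/DSS 0 (0.0797) or 3 (0.0561), or any of curcumin 0 to 3 (0.124, 0.107, 0.0856 and 0.0743). Neither Dbp call held without the filter (0.0531 and 0.0849) or with only the groups compared in the fit (0.0889 and 0.0863).
Dbp shares 18% of its exon bases (539 of 2993, in the GRCm38 annotation) with Sphk2, a lipid kinase gene on the opposite strand, and the strand setting of the counting is not given in the sources used here. Sphk2 averaged 27.6 FPKM in control, 20.9 in AOM/DSS and 27.1 in curcumin libraries and did not pass in either comparison (adjusted p = 0.488 and 0.53).

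Tef, the second PAR bZIP activator, was at 61.8, 44.3, 50.1 and 72.0 FPKM in control libraries. It was at 11.9, 28.0, 7.0 and 17.2 in AOM/DSS libraries and at 43.0, 51.0, 41.5 and 48.6 in curcumin libraries. Again the AOM/DSS libraries lay below all others, with library 1 the highest and library 2 the lowest of them, as for Dbp. The AOM/DSS mean of 16.0 ± 9.0 FPKM was 3.56-fold below control (log2 difference -1.90, SE 0.30, adjusted p = 0.00908), and the call held without any single library. The curcumin mean of 46.0 ± 4.50 FPKM was 2.87-fold above AOM/DSS (log2 difference 1.62, SE 0.30, adjusted p = 0.022). That call was lost without AOM/DSS 0 (adjusted p = 0.057) or any of curcumin 0 to 3 (0.0613, 0.0694, 0.0621 and 0.0604), and without the filter (0.0517). With only the groups compared in the fit, neither Tef call held (0.052 and 0.0645). Against control the curcumin group differed by -0.28 (95% interval -0.94 to 0.37, adjusted p = 0.746).

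Hlf, the third PAR bZIP activator, gave 7, 2, 6 and 0 reads in control, 0, 0, 2 and 9 in AOM/DSS and 0, 0, 1 and 1 in curcumin libraries. Its FPKM ran from 0 to 0.120, and 3 reads would be 0.0319 to 0.104 FPKM, depending on the library. The groups overlapped, and a difference was not detectable at this depth. Where the files list Hlf at 0, the gene may still be present below that level.

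Nfil3, the repressor that competes for D-boxes, was at 1.27, 1.19, 0.540 and 0.566 FPKM in control libraries. It was at 2.40, 1.62, 4.77 and 4.20 in AOM/DSS libraries and at 0.322, 0.463, 0.809 and 0.544 in curcumin libraries. The AOM/DSS libraries lay above all others, and those with the most Nfil3 were libraries 2 and 3. The AOM/DSS mean of 3.25 ± 1.48 FPKM was 3.65-fold above control (log2 difference 1.12, SE 0.24, adjusted p = 0.0469). The curcumin mean of 0.535 ± 0.205 FPKM was 6.08-fold below AOM/DSS (log2 difference -1.41, SE 0.24, adjusted p = 0.0157), and against control the difference was -0.29 (95% interval -0.81 to 0.24, adjusted p = 0.668). These values rest on 6 to 125 reads per library, and at this level the added 1 FPKM makes log2 differences smaller than the ratios.
The rise of Nfil3 with AOM/DSS was close to the threshold. Without the filter on low values it did not pass (adjusted p = 0.0782), nor with only the AOM/DSS and control libraries in the fit (0.136). It did not pass when any 1 of 11 libraries was left out (adjusted p from 0.0564), and passed only without AOM/DSS 1 (0.0158); over the 12 fits the difference stayed between 0.95 and 1.33. The lower level with curcumin did not pass without curcumin 0 (0.0561) or 1 (0.0532).
Immune cells also express Nfil3. Summed FPKM of 9 T, NK and innate lymphoid markers was 5.06 to 7.17 in control, 3.49 to 16.9 in AOM/DSS and 3.43 to 5.70 in curcumin libraries, with all 9 detected. AOM/DSS 2 and 3, the libraries with the most Nfil3, had 16.9 and 11.7 for these markers. They had 103 and 57.3 for the B and plasma cell markers, and 54.5 and 57.4 for 9 macrophage and dendritic cell markers, which ran from 8.29 to 47.4 in control and 4.40 to 30.2 in curcumin libraries. For the lymphoid, B and plasma cell, and macrophage and dendritic lists in turn, AOM/DSS 0, with 2.40 FPKM of Nfil3, had 3.49, 15.9 and 17.0. AOM/DSS 1, with 1.62 FPKM, had 6.49, 44.7 and 27.4. Control 2, the control library with the least Nfil3 (0.540), had 5.06, 35.9 and 47.4. Summed FPKM of 5 neutrophil markers was 0.216 to 2.47 in control, 0.84 to 11.6 in AOM/DSS and 0.215 to 0.608 in curcumin libraries. The AOM/DSS libraries thus lay above all curcumin libraries. The highest neutrophil sum, 11.6, was in AOM/DSS 1, which had the least Nfil3 of its group. AOM/DSS 2 and 3 had 3.94 and 9.47 for these markers. Of these markers Elane was at 0 in every library, and Mpo in every AOM/DSS and curcumin library. The part of these cells in the Nfil3 result was not tested.

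The balance of D-box activators and repressor combines these opposite differences. The sum of Dbp and Tef FPKM was 131, 72.2, 199 and 271 times that of Nfil3 in control libraries and 363, 242, 104 and 171 times in curcumin libraries. In AOM/DSS libraries it was 8.14, 33.7, 1.89 and 7.03 times. Each AOM/DSS library was below all the others, and AOM/DSS 1 came nearest to them. That separation follows from the values of Dbp, Tef and Nfil3 given above and is no further result. Outside AOM/DSS, Nfil3 in these ratios rests on 6 to 26 reads per library.

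**Figure D3:**
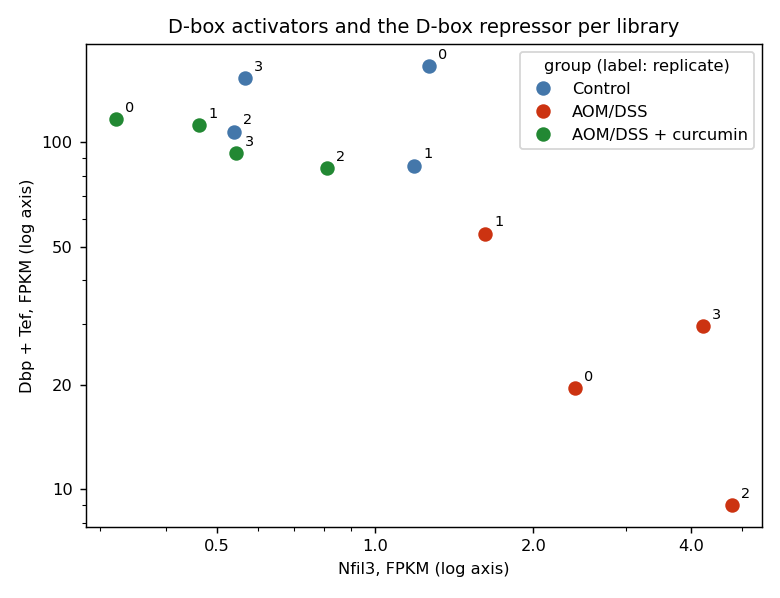
Summed FPKM of Dbp and Tef (vertical, log axis) against FPKM of Nfil3 (horizontal, log axis) in each of 12 libraries, coloured by group and labelled with the replicate number. The 4 AOM/DSS libraries have the most Nfil3 and the least Dbp and Tef, and AOM/DSS 1 lies nearest to the control and curcumin libraries.

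Ciart, the clock repressor with 3 promoter E-boxes, was at 21.3, 11.2, 19.1 and 32.8 FPKM in control libraries. It was at 1.39, 6.69, 0.75 and 2.88 in AOM/DSS libraries and at 19.8, 21.6, 13.3 and 14.1 in curcumin libraries. The AOM/DSS libraries were below all others, with library 1 again the highest and library 2 the lowest. The AOM/DSS mean of 2.93 ± 2.66 FPKM was 7.20-fold below control, the largest ratio to control among the tested members (log2 difference -2.63, SE 0.40, adjusted p = 0.00771). On the log2(FPKM + 1) scale the fall of Dbp was larger (-2.78). The call for Ciart held without any single library. The curcumin mean of 17.2 ± 4.12 FPKM was 5.88-fold above AOM/DSS (log2 difference 2.42, SE 0.40, adjusted p = 0.0141), a call that ended only without curcumin 1 (adjusted p = 0.05). Against control the difference was -0.21 (95% interval -1.09 to 0.66, adjusted p = 0.868).
Ciart was further down than Tef in AOM/DSS libraries. The ratio of Tef to Ciart FPKM was 8.58, 4.18, 9.34 and 5.97 there, without overlap with the other groups. It was 2.90, 3.97, 2.63 and 2.2 in control and 2.17, 2.36, 3.12 and 3.44 in curcumin libraries. This ratio is formed from the values given above and was not tested. In AOM/DSS libraries 0 to 3, Ciart rests on 19, 81, 12 and 60 reads. The ratio of Dbp to Tef overlapped, at 0.289 to 0.949 in AOM/DSS, 0.932 to 1.68 in control and 0.916 to 1.71 in curcumin libraries.

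Bhlhe40, a repressor that also responds to low oxygen and to immune signals, had another pattern. It was at 88.8, 82.4, 87.4 and 111 FPKM in control libraries. It was at 71.6, 62.8, 65.7 and 66.0 in AOM/DSS libraries and at 67.6, 69.6, 74.1 and 68.4 in curcumin libraries. All control libraries lay above all the others, and the AOM/DSS and curcumin libraries overlapped. The log2 difference was -0.46 in AOM/DSS (SE 0.11, 95% interval -0.70 to -0.22, adjusted p = 0.0595) and -0.39 in curcumin (95% interval -0.62 to -0.15, adjusted p = 0.179), both against control, and neither passed. With limma's array weights, which weight libraries by their scatter, both passed (adjusted p = 0.0378 and 0.0304). Over all genes, 288 and 491 passed with these weights, against 153 and 17 without them. Between curcumin and AOM/DSS the difference was 0.07, with a 95% interval from -0.16 to 0.31 (adjusted p = 0.826).

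Bhlhe41, its close relative, gave 6, 1, 7 and 1 reads in control, 1, 3, 3 and 5 in AOM/DSS and 1, 3, 3 and 3 in curcumin libraries. That is 0.0131 to 0.0952 FPKM, with overlapping groups, and no difference was detectable at this depth. Bhlhe41 shares 19.1% of its exon bases with an annotated transcript on the opposite strand, so these few reads are uncertain.

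The 4 called members were also fitted within each GC class of library, in fits chosen after seeing the data. AOM/DSS did not overlap the other groups for these members, so the direction was fixed in advance for any subset of libraries. Only the sizes of the differences are described. In AT-rich libraries alone, AOM/DSS differed from control by -3.21 for Dbp, -2.2 for Tef, -2.95 for Ciart and 1.65 for Nfil3 on the log2(FPKM + 1) scale. In GC-rich libraries alone, with a single control, the same differences were -2.77, -1.70, -2.38 and 0.40. Curcumin differed from AOM/DSS by 2.81, 1.93, 2.50 and -1.71 for these genes in AT-rich libraries, and by 2.14, 1.31, 2.34 and -1.10 in GC-rich ones. With at most 3 libraries a group, 0 members passed in either class, and of all genes 4 and 1 passed in AT-rich and 7 and 8 in GC-rich libraries.

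With group means removed, Dbp, Tef and Ciart also varied together over the 12 libraries, though not alike in every group. After the group mean was taken from log2(FPKM + 1), 10 pairs of members were correlated over 12 libraries, with exact two-sided permutation within groups and adjustment over the 10 pairs. Tef and Ciart had Pearson's r = 0.923 (p = 0.0013, adjusted 0.013) and Spearman's rho = 0.916 (p = 0.000796, adjusted 0.00796) by exact permutation. Dbp and Ciart had r = 0.900 (p = 0.00304, adjusted 0.0152) and rho = 0.832 (p = 0.006, adjusted 0.03), and Dbp and Tef r = 0.932 (p = 0.00687, adjusted 0.0229) and rho = 0.783 (p = 0.0148, adjusted 0.0494), by the same exact permutation. Without the 2 libraries farthest from the median of the first gene, r was 0.881, 0.851 and 0.773 for these pairs in turn.
The agreement was not the same in each group. For Dbp and Tef, r was 0.850 in control, 0.993 in AOM/DSS and 0.055 in curcumin libraries, each over 4 libraries and given as a description. In the same order, r was 0.949, 0.983 and 0.41 for Tef and Ciart, and 0.765, 0.956 and 0.898 for Dbp and Ciart. The 3 pairs did not pass without control 1 (adjusted permutation p from 0.0521 to 0.0617) or without AOM/DSS 1 (0.0521 to 0.0714), while r stayed between 0.819 and 0.933. Without AOM/DSS 2 or 3, Dbp and Tef did not pass (0.0849 each). Within a GC class the groups hold 1 to 3 libraries, too few for this test. Nfil3 had r of -0.616 with Dbp, -0.618 with Tef and -0.672 with Ciart, none past the threshold (adjusted exact permutation p from 0.249 to 0.336). Bhlhe40 had r from -0.136 to 0.191 with the other 4 members (adjusted exact permutation p from 0.789 to 0.97). These pooled values combine opposite signs by group. For Bhlhe40 and Ciart, r was 0.909 in control, -0.625 in AOM/DSS and -0.55 in curcumin libraries, and for Bhlhe40 and Tef it was 0.89, -0.481 and -0.449. With Dbp it was 0.523, -0.376 and -0.63, and with Nfil3 -0.578, 0.1 and 0.909. Each is over 4 libraries and a description, and the difference between groups was not tested.

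**Figure D4:**
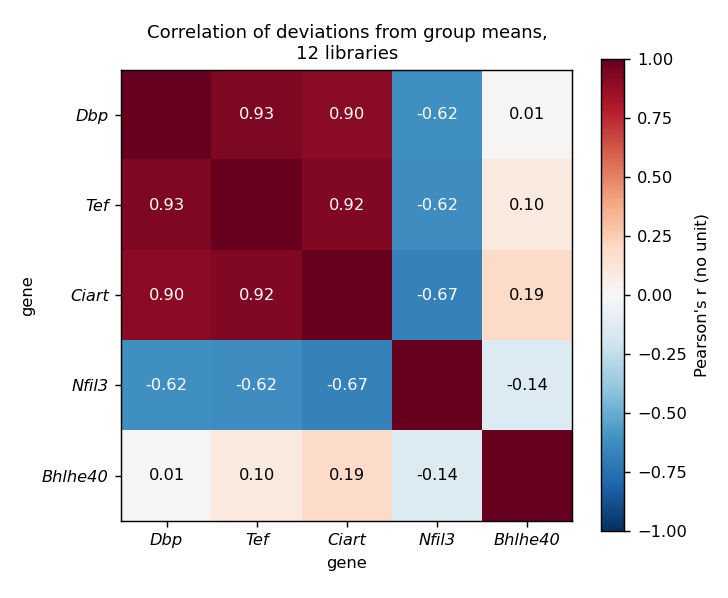
Pearson's r (colour scale and printed number, no unit) between the deviations of log2(FPKM + 1) from the group mean for each pair of the 5 tested members over 12 libraries, with genes on both axes. Dbp, Tef and Ciart have r from 0.900 to 0.932 with each other and negative r with Nfil3, and r of Bhlhe40 with the others lies between -0.136 and 0.191.

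Over all 12 libraries with group differences left in, the tested genes most like Dbp were Tef (Pearson's r = 0.981), Ciart (0.973) and Slc37a4 (0.955), which encodes the glucose-6-phosphate transporter. Those most like Tef were Ciart (0.983), Dbp (0.981) and 1700001L05Rik (0.966). Those most like Ciart were Tef (0.983), Dbp (0.973) and Usp2 (0.949). For all 3 the gene most opposite was Lonrf3, with r of -0.941, -0.916 and -0.938 in that order. Nfil3 was most like Glipr2 (0.952), Sept8 (0.943) and Tead1 (0.938) and most opposite to Nr1h3 (-0.964), which encodes the sterol sensor LXR alpha. Bhlhe40 was most like Vsig10 (0.901), Tmem64 (0.897) and Snx25 (0.896) and most opposite to Sap30 (-0.899). These r describe 12 libraries that share their groups and carry no test.

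Genes of the core clock loop were set beside the members. Of 19, 15 were tested, and in AOM/DSS 4 fell and 0 rose against control (0.813% and 0.456% of all genes). The median log2 difference was -0.61, against 0.015 over all genes tested. The clock repressor gene Cry2 went from 13.9 ± 2.12 to 7.60 ± 1.07 FPKM (log2 difference -0.79, adjusted p = 0.0133), and Per3 from 10.8 ± 4.33 to 3.10 ± 1.56 (-1.53, adjusted p = 0.0354). Nr1d2, which encodes REV-ERB beta, a repressor of Arntl and Nfil3, went from 37.1 ± 3.86 to 14.3 ± 3.67 FPKM (-1.34, adjusted p = 0.00366). Of these named calls, that of Cry2 was lost without control 3 (0.0576), and that of Per3 in 8 of 12 fits that left out 1 library (up to 0.137).
Other loop genes missed the threshold. Arntl, which encodes the E-box activator BMAL1, averaged 17.6 ± 8.95 FPKM in AOM/DSS against 8.33 ± 2.28 in control (0.90, adjusted p = 0.196). The repressor genes Nr1d1 (-0.86, adjusted p = 0.0571), Per2 (-1.05, 0.072) and Per1 (-0.90, 0.295) had lower means in AOM/DSS.
In curcumin against AOM/DSS, 3 loop genes were higher and 1 lower (0.73% and 0.348% of all genes). Their median was 0.28, against -0.005 over all genes. Cry2 was at 13.9 ± 1.43 FPKM (0.79, adjusted p = 0.0149) and Nr1d2 at 29.7 ± 6.00 (1.01, 0.0182) in curcumin libraries. Npas2, a relative of Clock, was the gene that was lower, at 3.44 ± 1.06 FPKM against 8.61 ± 2.53 (-1.11, adjusted p = 0.02). Leaving out 1 library ended these calls in 1 of 12 fits for Cry2, 3 for Nr1d2 and 3 for Npas2, at adjusted p up to 0.0718. Per3 (1.33, 0.0647), Per2 (0.91, 0.126), Per1 (0.78, 0.351), Nr1d1 (0.48, 0.288) and Arntl (-0.66, 0.336) did not pass. In curcumin against control, 0 of the 15 passed limma's adjusted threshold (also 0 at an unadjusted p below 0.05), and the median was -0.13.

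Genes known to need PAR bZIP factors in other tissues, such as liver and intestine, were a list of 10, of which 7 were tested. In AOM/DSS, 1 fell: Slc15a1, the peptide transporter PEPT1, from 139 ± 27.2 to 45.2 ± 12.7 FPKM (-1.63, adjusted p = 0.00274), without loss in any fit that left out 1 library. Of all genes tested, 0.813% fell. The list's median was -0.30, against 0.015 over all genes, and 2 of the 7 had a difference above 0 (0.41 and 0.02). In curcumin against AOM/DSS, 3 were higher and 0 lower (0.73% and 0.348% of all genes), with a median of 0.62. The same 2 genes had a difference below 0 (-0.15 and -0.09). Slc15a1 was at 97.8 ± 13.9 FPKM (1.13, adjusted p = 0.017). Abcb1a, a drug efflux pump, was at 234 ± 24.0 against 88.0 ± 25.2 (1.44, 0.0126), and Nr1i3, the xenobiotic sensor CAR, at 9.59 ± 1.41 against 3.25 ± 1.36 (1.36, 0.0155). Abcb1a passed without any single library, Slc15a1 was lost in 2 of 12 such fits (up to 0.0577) and Nr1i3 in 3 (up to 0.0536). In curcumin against control, 0 passed limma's threshold, against 0.141% of all genes, and the median was 0.26. An unadjusted p below 0.05 was found for 2, and for 12.2% of all genes. These 2 went opposite ways: Slc15a1 differed from control by -0.50 (limma adjusted p = 0.344) and Nr1i3 by 0.68 (0.264).

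Of 5 genes that the clock drives in many tissues, all tested, 1 fell in AOM/DSS: Usp2, a ubiquitin protease, from 16.8 ± 7.12 to 5.31 ± 2.45 FPKM (-1.44, adjusted p = 0.0488). That call was lost in 10 of 12 fits that left out 1 library (up to 0.17). Of all genes tested, 0.813% fell. The list's median was -0.40 in AOM/DSS against control, 0.42 in curcumin against AOM/DSS and -0.07 in curcumin against control, with 0 called in either of the last by limma (3 and 0 at an unadjusted p below 0.05, against 14.5% and 12.2% of all genes).

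Epithelial NFIL3 is known to raise lipid uptake and storage genes, and 3 such genes were listed, of which 2 were tested. Scd1, a fatty acid desaturase, rose in AOM/DSS from 5.84 ± 0.891 to 12.2 ± 3.16 FPKM (0.93, adjusted p = 0.0176), a call lost without control 3 (0.0615). In curcumin libraries it was lower than in AOM/DSS, at 5.94 ± 0.818 FPKM (-0.90, adjusted p = 0.0204), a call lost without curcumin 0, 1 or 2 (up to 0.07). Fabp4, the other tested gene, differed by -0.02 in AOM/DSS against control (adjusted p = 0.966). In curcumin libraries Fabp4 differed by -1.47 from AOM/DSS (0.159) and by -1.49 from control (0.215), while Scd1 differed from control by 0.02. The medians over these 2 unlike genes were 0.45, -1.18 and, for curcumin against control, -0.73. In that last comparison limma called 0 (1 at an unadjusted p below 0.05, as had 12.2% of all genes).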

How the data were processed

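RNA of 12 colon epithelium libraries was measured as FPKM. The authors deposited 1 FPKM value per gene symbol and library, per the labels' files. Named in the submitters' processing notes, without their roles, are the build mm9, R 3.4.0, DESeq2 1.14.1, featureCounts 1.5.1, Picard, TopHat2 2.1.1 and Bowtie2 2.2.6; the annotation, strand setting and filters are not given in the sources used here. FPKM values were whole multiples of 1 read, within 0.001, for all 19233 genes above 0 (5158 were 0 throughout).

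Here log2(FPKM + 1) was tested with limma 3.58.1 in R 4.3.3 (intensity trend, 9 residual degrees of freedom, genes at 1 FPKM or above in 4 or more libraries, adjustment over all 12052 genes). All 12 libraries entered 1 model, grouped by their titles. Pairs, promoters and summaries used Python 3.11.15, NumPy 2.4.6, pandas 2.3.3 and SciPy 1.17.1, and plots matplotlib 3.10.9. The fit was also run on simulated data with the same dispersion for all genes and no GC classes. That run does not show how reliable the calls are in these libraries. GC content was known for 11973 tested genes (99.3%), from an annotation of GRCm38, a later build than that of the files; no gene coordinates are converted.

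The members, 6 gene lists and 10 marker lists were chosen with earlier results of these data known. The rule named all 7 members, the called genes of each list (at most 6), Arntl, Nr1d1 and Per1 to Per3. It also named, for each tested member, the 3 most similar genes and the most opposite one. Sphk2 was added for its exon overlap, and Fabp4 as the other tested gene of its list. A called gene of the core clock list is counted there but not reported here by name. Alternatives changed the pseudocount, filter, scaling, trend, weights, block and libraries fitted.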

Additional observations from a re-analysis of the deposited data

How the results depend on the processing

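Each comparison was refitted under 26 alternatives. For AOM/DSS against control, curcumin against AOM/DSS and curcumin against control, 4, 4 and 0 members passed; leaving out 1 library in turn gave 2 to 4, 0 to 4 and 0. Without the filter, with more genes tested, 2 and 2 members passed in the first comparisons. Lost were Dbp (adjusted p = 0.0531) and Nfil3 (0.0782) in AOM/DSS against control and Dbp (0.0849) and Tef (0.0517) in curcumin against AOM/DSS. With only the groups compared in the fit, 1 and 2 passed. Lost were Dbp (0.0889), Tef (0.052) and Nfil3 (0.136), then Dbp (0.0863) and Tef (0.0645). In the AT-rich or the GC-rich libraries alone, with fewer libraries, 0 and 0 passed. Array weights added Bhlhe40 in curcumin against control, 1 member, where 491 of all genes passed against 17 without the weights. The number of correlated pairs, 3, ran from 0 to 3 when 1 library was left out. Ciart in curcumin against control changed sign without control 3 (log2 difference 0.021, adjusted p = 0.996 by limma) and ran down to -0.47 without control 1. Nfil3 in AOM/DSS did not pass with a pseudocount of 0.1 (1.73, adjusted p = 0.0598), a common sum (0.0528) or quantile scaling (0.0565), and Dbp in curcumin against AOM/DSS did not with a pseudocount of 0.1 (0.0508); the cause was not tested in any of these.

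With the replicate number as a block, 3, 3 and 0 members passed: Nfil3 was lost in AOM/DSS against control (adjusted p = 0.091) and Dbp in curcumin against AOM/DSS (0.0528). Same-numbered libraries had deviations correlated from -0.333 to 0.456 over 12 pairs, and 4 of 12 libraries correlated best with their own number, so the numbers were not taken as a pairing. Over all genes, 153, 130 and 17 passed in the 3 comparisons. The counts were 288, 468 and 491 with array weights, 54, 85 and 23 with only the groups compared, 82, 86 and 2 with the block, 238, 272 and 40 with a GC covariate, and 178, 138 and 29 with voom on the recovered reads; AT-rich libraries alone gave 4, 1 and 0, and GC-rich ones 7, 8 and 0. In curcumin against control, 7 passed without the filter and 11 with a pseudocount of 0.1. Leaving out 1 library gave 53 to 201, 48 to 149 and 4 to 35. Hlf, Bhlhe41 and Nfil3 are limited by their few reads.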

Other observations

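Relatives of the members in the C/EBP family, which bind sequences close to the D-box, gave no call. Of 6 listed, 5 were tested, and 0 passed limma's test in any of the 3 comparisons (1, 1 and 2 at an unadjusted p below 0.05, which 13.5%, 14.5% and 12.2% of all genes had). The median log2 differences were -0.18 in AOM/DSS against control, -0.06 in curcumin against AOM/DSS and -0.32 in curcumin against control. Of 12 genes known to be induced by low oxygen, a signal that also raises Bhlhe40, all were tested and 0 passed limma's test in any comparison (2, 3 and 3 at an unadjusted p below 0.05, against those same shares of all genes), with medians of -0.12, 0.07 and -0.15.

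Among markers of other cells in the scrapings, summed FPKM of 5 fibroblast markers was 0.669 to 11.9 in control, 2.38 to 22.0 in AOM/DSS and 0.344 to 4.35 in curcumin libraries. For 4 smooth muscle markers it was 8.76 to 16.5, 9.08 to 20.8 and 7.69 to 9.83, and for 4 haemoglobin genes 58.4 to 324, 17.4 to 323 and 25.7 to 36.8. Summed FPKM of 3 endothelial markers was 3.10 to 6.05, 1.27 to 3.92 and 3.39 to 4.67, and that of 4 neuron and glia markers 1.35 to 3.00, 0.935 to 2.14 and 1.58 to 2.13.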
